A study of Mus musculus with 4 samples.

Results

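The proprotein convertases and carboxypeptidases described here are 9 genes, taken by symbol from the 23473 gene rows of a read count table of cells labelled MIN6. Of the 9, 7 encode convertases (Pcsk1, Pcsk2, Pcsk4, Pcsk5, Pcsk6, Pcsk7 and Furin) and 2 encode carboxypeptidases (Cpe and Cpd). The libraries are labelled MIN6, but most of their beta cell markers had no reads, as given below. MIN6 is a cell line from a mouse insulinoma, a tumour of insulin-secreting islet cells, and is used to study beta cells. Total RNA was sequenced from 2 libraries of wild type control cells and 2 libraries of cells stably overexpressing TLX, the orphan nuclear receptor that the gene Nr2e1 encodes. Both groups were kept in the same medium, with 25 mM glucose and 15% serum. The labels do not say whether a stable line is a single clone or a pool, which promoter drives TLX, what the control cells carry, or whether the 2 libraries of a group came from separate cultures, so p-values measure only the spread between these libraries. The comparison asked which transcripts differ when TLX is overexpressed.

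Convertases are serine proteases of the subtilisin type that cut precursor proteins after pairs or clusters of basic residues. In beta cells the enzymes encoded by Pcsk1 and Pcsk2 cut proinsulin inside maturing secretory granules, and carboxypeptidase E, encoded by Cpe, trims the basic residues that are left at the new ends. Furin and the enzyme encoded by Pcsk7 work mainly in the trans-Golgi network and at the cell surface of most cell types, and carboxypeptidase D, encoded by Cpd, is the trimming enzyme of that constitutive route.

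Upstream sequence is shown for 3 genes on which the results turn: Pcsk1, a granule convertase without a read in any library, Furin, the most abundant member, and Cpd, the only member that passed the test. The sequences come from the RefSeq promoter table of build GRCm38.p6, not the build named for the reads, and 7 of the 9 members have an entry there, with 8 start sites. Each run holds 200 bases, from 250 to 51 bases before the annotated start, in the direction of transcription. Capitals mark a cyclic AMP response element (TGACGTCA). The windows are chr13:75089607-75089806, plus strand, for Pcsk1; chr7:80402863-80403062, minus strand, for Furin; and chr11:76847059-76847258, minus strand, for Cpd.
Pcsk1: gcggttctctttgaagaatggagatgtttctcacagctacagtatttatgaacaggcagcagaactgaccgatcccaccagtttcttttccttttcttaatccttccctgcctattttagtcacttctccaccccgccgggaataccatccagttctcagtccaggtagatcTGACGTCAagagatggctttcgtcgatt
Furin: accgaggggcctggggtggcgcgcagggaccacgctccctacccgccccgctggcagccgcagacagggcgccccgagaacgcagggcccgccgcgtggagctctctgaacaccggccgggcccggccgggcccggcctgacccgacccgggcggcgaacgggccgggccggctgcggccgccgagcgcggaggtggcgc
Cpd: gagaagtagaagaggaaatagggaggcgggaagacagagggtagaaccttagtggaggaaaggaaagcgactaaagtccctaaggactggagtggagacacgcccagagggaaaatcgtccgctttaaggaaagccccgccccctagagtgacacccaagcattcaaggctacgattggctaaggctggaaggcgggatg

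Over the 250 bases before each of the 8 starts, both strands were searched for that element and for AAGTCA, the half-site reported for TLX. No match of AAGTCA was found in these 8 windows, and 13.1% of the 32851 promoters in the table hold at least 1. The element TGACGTCA was found at 1 start, that of Pcsk1, where it begins 78 bases before the start, and 1.55% of all promoters hold it. The motifs share the letters GTCA, but the letters before them differ, so they cannot match at the same place. A missing match says only that these letters are not in this window. The Furin window shown is among the richest in CpG, with 40 CpG in 250 bases against a median of 6 over all promoters. The windows of Pcsk6 (40), Pcsk7 (36) and Pcsk2 (35) were similarly rich, while those of Pcsk5 (15), Cpd (14), Pcsk1 (8) and the other Furin start (6) were less so. High CpG content was thus found at starts of genes with many reads (Furin) and with none (Pcsk2).

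The labelled cell type was checked against marker genes, and most levels went against the label. Most markers of beta cells had 0 counts in control and TLX libraries alike. The zeros of Pcsk1 and Pcsk2 given below are therefore those of cells with few beta cell transcripts. Of 13 beta cell markers 9 had 0 counts in every library, among them Iapp, Nkx6-1, Neurod1 and Slc2a2. The summed level of the 13 was 18.3 to 20.6 CPM in control and 20.8 to 21.7 CPM in TLX. CPM are read counts scaled to the library's total over the tested genes. The other 4 markers, Ins1, Ins2, Pdx1 and Mafa, were detected. Ins1 and Ins2 averaged 9.37 and 8.60 CPM per kilobase of the deposited feature length (62.5th and 60.8th percentile of gene rows with any count). Pdx1 and Mafa averaged 3.15 and 1.77. The 9 markers of neuroendocrine granules summed to 119.8 to 120.0 CPM in control and 111 to 117 CPM in TLX, most of it from Ptprn, with Chga and Scg3 at 0. The 13 fibroblast and mesenchymal markers summed to 7584 to 7992 CPM in control and 8267 to 8604 CPM in TLX. Of the 8 tested, Sparc and Col1a2 were higher (log2 fold changes of 0.87 and 0.28) and Fn1 and Pdgfrb lower (-0.76 and -0.73). Over all genes tested, 16.8% were called in either direction (edgeR adjusted p under 0.05). Lum was at 0, and Col3a1, Dcn, Thy1 and Acta2 had at most 6 counts in a library. The 5 duct markers summed to 893 and 977 CPM in control and 720.5 and 737 CPM in TLX, nearly all of it Spp1. Sox9 and Spp1 were called lower (-1.37 and -0.34). Muc1, with 10 and 8 counts in control and 13 and 14 in TLX, had a log2 fold change of 0.72 and did not pass. Krt19 and Cftr were at 0. The 5 leukocyte markers with a row summed to 59.7 and 68.3 CPM in control and 43.5 and 46.2 CPM in TLX, nearly all of it Cd68, which was lower (-0.53), with Ptprc at 0 or 1 count. The 8 markers of other islet cells, mostly Irx2, summed to 43.5 and 51.0 CPM in control and 56.0 and 52.6 CPM in TLX, with Gcg, Sst and Ppy at 0, and the acinar and endothelial lists summed to at most 2.31 and 3.24 CPM. The part of these markers in the results below was not tested, and in bulk RNA fewer cells of a type and less RNA per cell cannot be told apart. Gene rows held 8136185 to 9788646 counts per library. The single row Rn45s took 14.2% and 14.3% of them in control and 12.2% and 16.7% in TLX. Nr2e1 itself was counted 8 and 10 times in wild type and 338 and 281 times in overexpressing cells, the direction the labels give.

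The granule convertases were not detected. Pcsk1 and Pcsk2 had 0 counts in control replicates 1 and 2 and in TLX replicates 1 and 2. Their granule partners were also at or near 0: Pcsk1n, which encodes the inhibitor proSAAS, had 0 counts in every library, and Scg5, which encodes the Pcsk2 chaperone 7B2, had 3 and 8 counts in control and 5 and 2 in TLX. A count of 0 allows 3 counts, which per kilobase of the deposited feature length is up to 0.150 CPM per kilobase for Pcsk1 and 0.0798 for Pcsk2 in the shallowest library (counting error only). Furin was at least 487-fold above the limit for Pcsk1 and at least 918-fold above that for Pcsk2 in every library. Without counts, no difference between groups can be given for either gene.

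Pcsk5 and Pcsk6, which encode convertases of the constitutive route that act mainly on growth factor and matrix precursors, were not detected beyond a single read. Pcsk5 had 0 counts in all 4 libraries, and Pcsk6 had 0 and 1 in control and 0 and 0 in TLX. Their limits in the shallowest library were 0.0405 and 0.0881 CPM per kilobase. At this depth the 4 genes Pcsk1, Pcsk2, Pcsk5 and Pcsk6 could not be ordered among themselves.

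**Figure D1:**
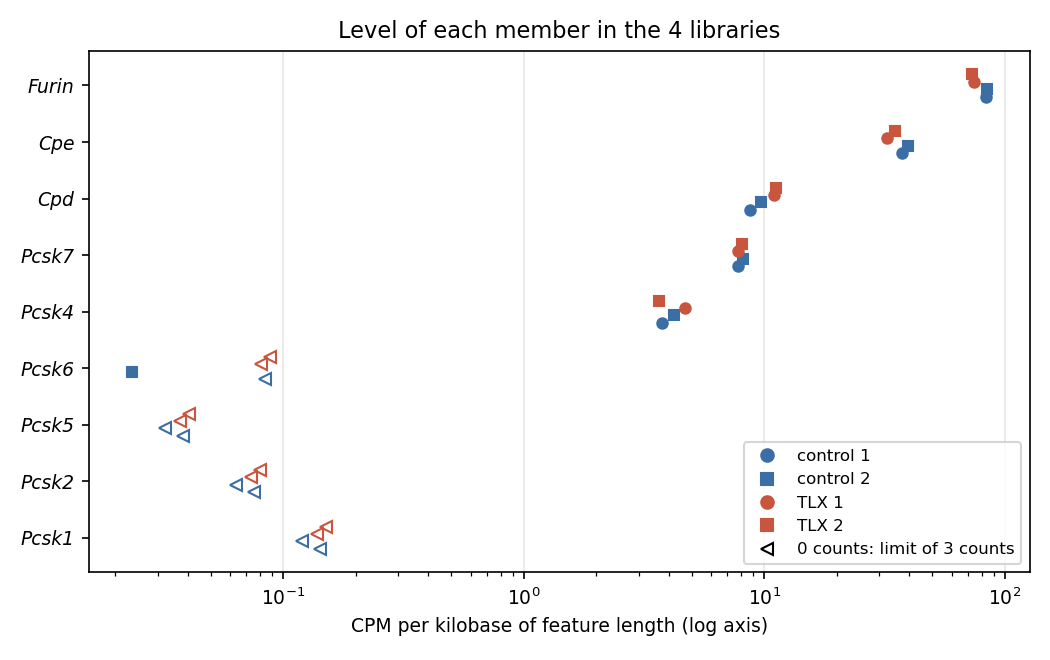
Level of each of the 9 members in the 4 libraries, in CPM per kilobase of feature length on a log axis; blue is control, red is TLX, circles and squares are replicates 1 and 2, and open triangles mark the limit of 3 counts where a library had 0. Furin, Cpe, Cpd, Pcsk7 and Pcsk4 lie above 3.6, and Pcsk1, Pcsk2 and Pcsk5 were not detected.

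Per kilobase, the order of the detected members over the 4 libraries was Furin, Cpe, Cpd, Pcsk7 and Pcsk4. Furin averaged 78.9 CPM per kilobase, a level reached or exceeded by few genes (94.3rd percentile of gene rows with any count). Cpe averaged 36.0 CPM per kilobase (86.8th percentile), Cpd 10.1 (64.0th), Pcsk7 7.94 (59.4th) and Pcsk4 4.08 (47.9th). The libraries of neighbouring genes did not overlap in this order. Cpd and Pcsk7 lay closest, at 9.21 ± 0.73 and 7.97 ± 0.30 CPM per kilobase in control (SD, n = 2). Their distance depends on the deposited lengths of 9152 and 3814 bases, and in CPM Cpd was further above Pcsk7 (84.3 and 30.4 in control). The order of Cpe and Cpd rests on the lengths of 2094 and 9152 bases. In CPM, not divided by length, Cpe averaged 75.4 and Cpd 92.8. Cpe was thus abundant in libraries that held no read of the granule convertases.

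Furin made up most of the convertase RNA. Of the summed level per kilobase of the 7 convertases, Furin took 87.9% and 87.2% in the control libraries (replicates 1 and 2, as in each pair of values below) and 85.7% and 86.2% with TLX. Pcsk7 took 8.16% and 8.47% in control and 8.96% and 9.46% in TLX. Pcsk4, known mainly for its role in sperm, took the rest, apart from the single Pcsk6 read. The summed level itself was 95.04 and 96.68 CPM per kilobase in control and 87.01 and 84.98 in TLX, so both TLX libraries lay below both controls, as they did for Furin alone.

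Of the 9 members 5 had enough counts to be tested. With TLX, 1 of them rose, 0 fell and 4 did not pass (edgeR quasi-likelihood test, adjusted p under 0.05). Over all 11024 genes tested 16.8% passed, 7.79% higher and 9.04% lower, so 1 of 5 is near the background. Without TLX replicate 1 or 2, 454 or 388 genes were higher in place of 859, and 585 or 636 lower in place of 997. At an unadjusted p under 0.05, 1 member was higher and 2 were lower (30.1% of all genes tested passed in either direction). DESeq2 called 0 of the 5 in either direction (8.25% of the genes to which it gave an adjusted p), and limma-voom called 1 higher and 0 lower. Both TLX libraries lay outside the control range for 3 of the 5 members, against 57.1% of all genes tested. The median log2 fold change was -0.01 over the 5 members and 6e-04 over all tested genes.

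**Figure D2:**
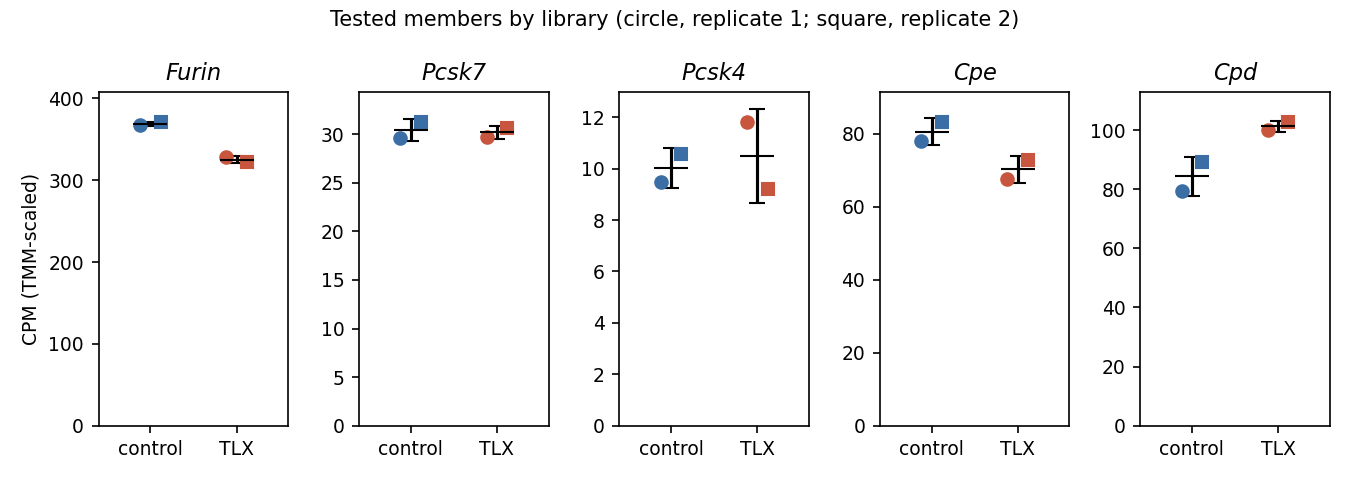
CPM on TMM-scaled library sizes for the 5 tested members, with each library as a point, the group mean as a dash and the SD over 2 libraries as bars; each panel has its own axis from 0. The groups do not overlap for Furin, Cpe and Cpd, and overlap for Pcsk7 and Pcsk4.

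Cpd, the carboxypeptidase of the constitutive route, was higher with TLX. Its level was 79.5 and 89.0 CPM in the control libraries and 99.9 and 102.6 CPM in the TLX libraries. Both TLX libraries were above both controls, and the controls differed from each other by more than the TLX libraries did. The means were 84.3 ± 6.7 and 101.2 ± 1.9 CPM (SD, n = 2). The ratio was 1.20-fold (95% interval 1.06 to 1.35), which on the log2 scale is 0.26 with SE 0.08 (edgeR adjusted p = 0.0355). By its absolute log2 fold change it stood at the 70.5th percentile of all tested genes. Leaving out a library leaves its group with 1, which is then assumed to vary like the other group, so calls can be lost with no smaller difference. The call was lost without control replicate 1 (log2 fold change 0.18, adjusted p = 0.151), TLX replicate 1 (0.28, 0.168) or TLX replicate 2 (0.24, 0.256), in DESeq2 (0.159) and on total counts without normalization factors (0.0509). Over the 13 alternatives edgeR, DESeq2 and limma-voom gave adjusted p of 0.00154 to 0.256, and the log2 fold change was positive in each, from 0.18 to 0.35.

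Cpe, the carboxypeptidase of the regulated route, did not pass. It stood at 78.0 and 83.1 CPM in control and 67.7 and 72.8 CPM in TLX. Both TLX libraries were below both controls, though the gap between the groups was about as wide as that between the replicates of either. The means were 80.5 ± 3.6 and 70.2 ± 3.6 CPM (SD, n = 2), with a log2 fold change of -0.20, an SE of 0.09 and an unadjusted 95% interval of -0.38 to -0.02 (edgeR adjusted p = 0.119; 59.5th percentile by absolute size).

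Set against each other within a library, where scaling plays no part, the 2 carboxypeptidases had different ratios in the groups. There were 1.02 and 1.07 Cpd counts for each Cpe count in control and 1.48 and 1.41 in TLX. Per kilobase, Cpe took 81.1% and 80.3% of the pair's summed level in control and 74.7% and 75.6% in TLX. By this measure Cpe was the more abundant of the pair in all 4 libraries. That order rests on the deposited lengths, as Cpd had more counts than Cpe in each library. The summed level of the pair overlapped between groups, at 45.9 and 49.4 CPM per kilobase in control and 43.2 and 46.0 in TLX. This ratio was chosen after its values were seen, and it is given without a test.

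Furin did not pass either, although its replicates lay close together. It stood at 367 and 371 CPM in control and 328 and 322 CPM in TLX, so that both TLX libraries lay below both controls. The gap between the groups was wider than that within either. The means were 369 ± 2 and 325 ± 4 CPM (SD, n = 2), with a log2 fold change of -0.18, an SE of 0.07 and an unadjusted 95% interval of -0.34 to -0.03 (edgeR adjusted p = 0.0961; 55.5th percentile by absolute size). As a ratio of TLX to control, the interval runs from 0.792 to 0.980.

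Pcsk7 and Pcsk4 overlapped between groups. Pcsk7, which encodes a membrane-bound convertase that also cuts the transferrin receptor, stood at 29.6 and 31.2 CPM in control and 29.7 and 30.7 CPM in TLX. Its log2 fold change was -0.01 (SE 0.11, 95% interval -0.23 to 0.21; edgeR adjusted p = 0.952), and its sign turned without control replicate 2 (0.03) and without TLX replicate 1 (0.01). Exons of Pcsk7 overlap those of Rnf214 on the opposite strand over 415 bases and those of Tagln over 108 bases in the GENCODE M21 annotation, and the use of strand in counting is not given in the sources used here, so reads there cannot be told apart. Rnf214 had 232 and 295 counts in control and 236 and 194 in TLX, a number like that of Pcsk7 (247, 310, 257 and 243 in the same order), while Tagln had 5 to 11. Pcsk4 stood at 9.46 and 10.6 CPM in control and 11.8 and 9.21 CPM in TLX, the lowest and the highest library both being TLX. Its log2 fold change was 0.07 (SE 0.17, 95% interval -0.28 to 0.42; edgeR adjusted p = 0.836), and it was -0.01 without control replicate 1 and -0.13 without TLX replicate 1. For neither gene do the intervals show that the groups are alike: the upper ends are ratios of 1.33 for Pcsk4 and 1.154 for Pcsk7.

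**Figure D3:**
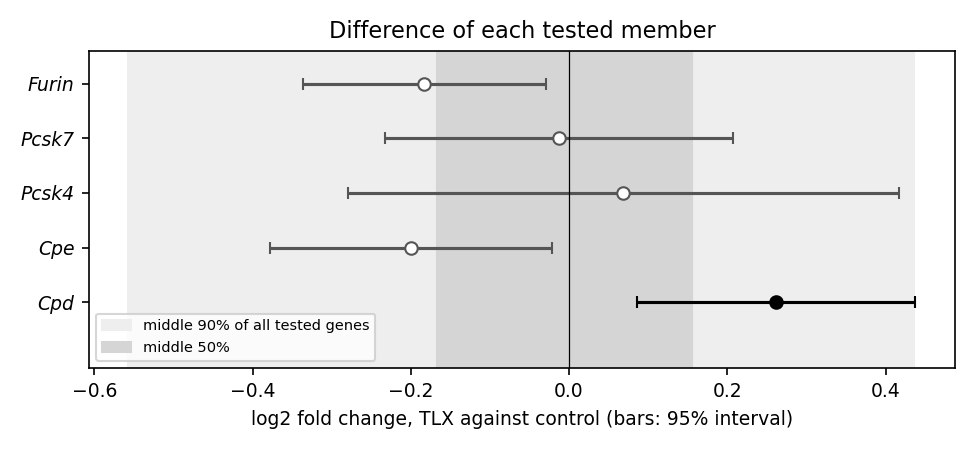
Log2 fold change of the 5 tested members with unadjusted 95% intervals; the filled point passed the test and the open points did not, and grey bands hold the middle 50% and 90% of all 11024 tested genes. All 5 points lie within the wider band, and Cpd at 0.26 is the only filled one.

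**Figure D4:**
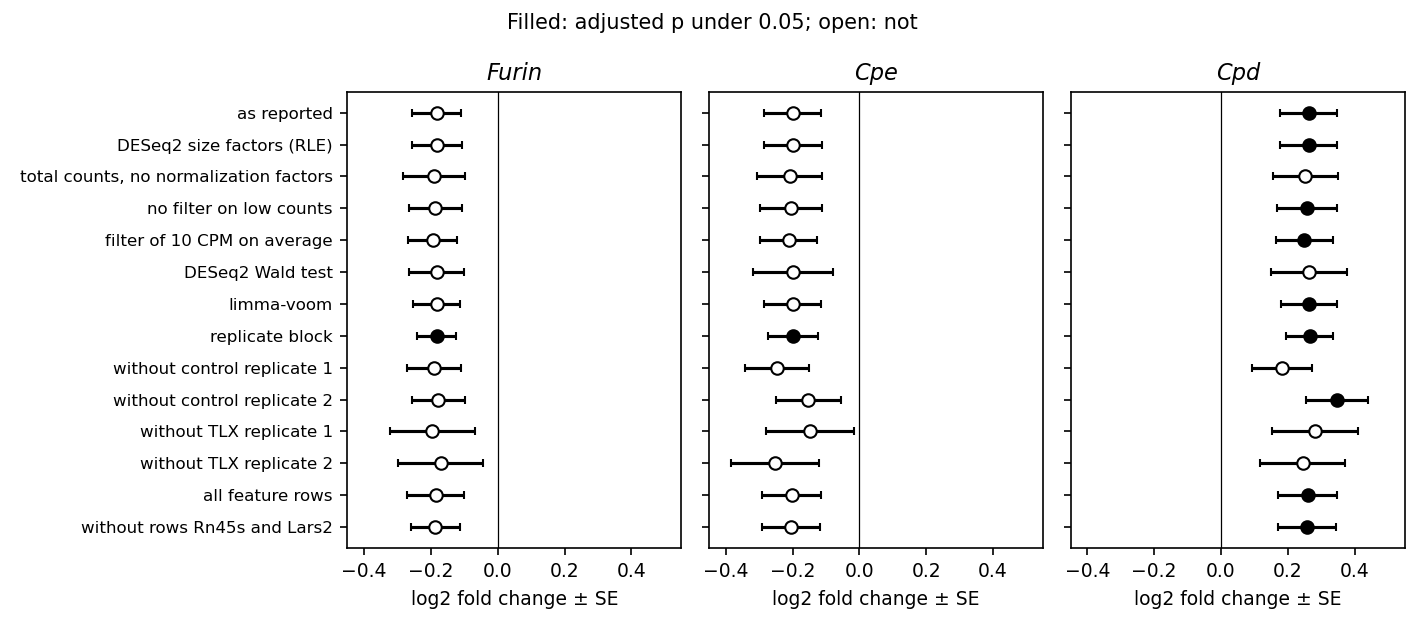
Log2 fold change with its SE for Furin, Cpe and Cpd as reported and under the 13 alternatives; filled points had an adjusted p under 0.05. The signs hold throughout, Cpd is filled as reported and in 8 alternatives, and Furin and Cpe are filled only with the replicate block.

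The genes most like Cpd and Furin in their pattern over the 4 libraries were found by the Euclidean distance of centred log2 CPM among 9643 other genes. For Cpd these were Mpzl1 (distance 0.00515), Cdkn1b (0.0220) and Rfwd3 (0.0244), with log2 fold changes of 0.27, 0.27 and 0.24 and adjusted p of 0.0842, 0.0888 and 0.0784 in edgeR. None of these 3 passed, though their differences were about as large as that of Cpd. For Furin they were Aimp1 (0.00716), Tmem206 (0.0111) and Dcp1a (0.0132), with log2 fold changes of -0.19 in each. With 4 libraries such likeness is a description only.

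Among other enzymes of the same families those tested did not pass with all libraries and no replicate block. Over all genes tested 16.8% passed in edgeR, and 30.1% had an unadjusted p under 0.05. Mbtps1, which encodes the site-1 protease, a convertase that cuts membrane-bound transcription factors in the Golgi, had 103.9 ± 8.2 CPM in control and 90.1 ± 6.7 CPM in TLX (log2 fold change -0.21, edgeR adjusted p = 0.113, and 0.0112 without control replicate 2). Of 18 other carboxypeptidase genes 7 were at 0 and 5 were tested, of which 0 passed (1 lower at an unadjusted p under 0.05 in edgeR; 0 in DESeq2 and 0 in limma-voom). That gene was Scpep1, a lysosomal serine carboxypeptidase, at 327.8 ± 0.3 and 290.7 ± 6.7 CPM (adjusted p = 0.118). The pancreatic digestive genes Cpa1 and Cpb1 were at 0. Of 8 other peptide-processing enzymes 7 were tested and 0 passed, also without adjustment in edgeR (0 under 0.05), and 0 in DESeq2 and limma-voom. They include Ctsl and Ctsb, which encode lysosomal cathepsins and stood at 2331 ± 31 and 1145 ± 57 CPM in control and 2258 ± 22 and 1121 ± 38 CPM in TLX (SD, n = 2).

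Of the 4 partners and inhibitors of convertases 2 were tested and 1 rose (16.8% of all tested genes were called). Gbp2, an interferon-induced GTPase gene whose human namesake has been reported to inhibit furin, averaged 43.2 ± 8.0 CPM without and 54.8 ± 2.4 CPM with TLX (log2 fold change 0.34, SE 0.11, edgeR adjusted p = 0.0313). It had 313 and 485 counts in the 2 controls, and its value was 0.17 without control replicate 1 (adjusted p = 0.274) and 0.55 without control replicate 2. The call was also lost without TLX replicate 1 (0.176) and in DESeq2 (0.174). Over the alternatives adjusted p ran from 2.27e-05 to 0.274. Gbp5, with 18 and 22 counts against 18 and 21, did not pass (adjusted p = 0.872).

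Of 13 tested genes of trans-Golgi sorting, the compartment where furin cycles, 1 rose, 0 fell and 12 did not pass. Over all genes tested 16.8% were called. At an unadjusted p under 0.05 in edgeR 3 were higher and 3 lower, and 30.1% of all tested genes passed in either direction. DESeq2 called 0 in either direction, and limma-voom called 1 higher and 0 lower. M6pr, which encodes the cation-dependent mannose 6-phosphate receptor, averaged 131.0 ± 2.8 CPM in control and rose to 155.7 ± 8.4 CPM (edgeR log2 fold change 0.25, SE 0.08, adjusted p = 0.0292). Its call was lost without TLX replicate 1 (0.402) or 2 (0.115), in DESeq2 (0.111), on total counts (0.0511) and on all feature rows (0.0534), within a range of 0.000912 to 0.402. Ap1s1, an adaptor subunit gene, had a log2 fold change of 0.20 (adjusted p = 0.105, but 0.00188 without control replicate 1). Stx6 and Ap1m1 had -0.20 and -0.19 (adjusted p of 0.132 and 0.138). The list's median log2 fold change was -0.08.

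Most substrates of the constitutive route did not pass. Of 23 tested genes encoding precursors cut by furin-like enzymes 2 rose, 3 fell and 18 did not pass, near the 16.8% called over all genes, with a median log2 fold change of 0.02. Apln, the gene of the peptide apelin, had 50 and 65 counts in control and 131 and 119 in TLX (2.40-fold; edgeR adjusted p = 7.56e-06). Mmp14, a membrane-bound matrix metalloproteinase gene, rose from 98.7 ± 6.1 to 121.5 ± 1.7 CPM (adjusted p = 0.0121). Inhba, the activin A subunit gene, fell from 21.5 ± 2.8 to 13.1 ± 1.3 CPM (log2 fold change -0.73, adjusted p = 7.63e-04). The growth factor gene Bdnf and the receptor gene Notch1 also fell, by 0.35 and 0.49 on the log2 scale (edgeR adjusted p of 0.0380 and 0.0286). Apln and Inhba passed under every alternative run. The other calls were lost when a library was left out. The log2 fold changes then stayed between 0.24 and 0.36 for Mmp14 (0.30 with all libraries), -0.69 and -0.33 for Notch1 and -0.38 and -0.32 for Bdnf. The adjusted p that missed the threshold were those of Mmp14 without TLX replicate 1 (0.157) or 2 (0.105), Notch1 without control replicate 1 (0.0663) or TLX replicate 2 (0.289), and Bdnf without control replicate 2 (0.105) or TLX replicate 1 (0.195) or 2 (0.132). DESeq2 called 1 higher and 1 lower. The alternatives' adjusted p ran from 0.000105 to 0.157 for Mmp14, 0.00323 to 0.289 for Notch1 and 0.0115 to 0.276 for Bdnf.

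The precursors that the granule convertases cut were mostly as undetected as the enzymes. Of 22 prohormone and granin genes 15 had 0 counts in all libraries, 3 were tested and 1 fell (16.8% of all tested genes were called). Vgf, a granin-like precursor gene, had 234 and 251 counts in control and 186 and 148 in TLX (log2 fold change -0.40, SE 0.12, edgeR adjusted p = 0.0249). Its call was lost without control replicate 1 (0.0766) or TLX replicate 2 (0.244) and in DESeq2 (0.201), within a range of 0.0028 to 0.244. Ins1 had 78 and 86 counts in control and 98 and 70 in TLX, and Ins2 had 45 and 40 in control and 32 and 50 in TLX, with overlapping groups for both.

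Of 7 tested substrates of the site-1 protease 1 was higher, 2 were lower and 4 did not pass, with a median log2 fold change of -0.10 (16.8% of all tested genes were called). With single libraries left out, the count higher ran from 0 to 1 and the count lower from 0 to 2. Gnptab, whose product makes the mannose 6-phosphate tag read by the M6pr product, rose from 49.0 ± 5.1 to 64.3 ± 3.3 CPM (log2 fold change 0.39, edgeR adjusted p = 0.00619, and 0.0870 without TLX replicate 2). Atf6, a sensor of stress in the endoplasmic reticulum, fell from 192.6 ± 4.3 to 151.1 ± 6.7 CPM (log2 fold change -0.35, adjusted p = 0.00237, and 0.121 without TLX replicate 1). Creb3, another membrane-bound transcription factor gene, fell from 104.6 ± 5.5 to 85.4 ± 4.6 CPM (log2 fold change -0.29, adjusted p = 0.0194, with 0.0773 and 0.294 without TLX replicates 1 and 2 and 0.0973 in DESeq2). The alternatives' adjusted p ran from 1.89e-05 to 0.0870 for Gnptab, 3.87e-07 to 0.121 for Atf6 and 0.000366 to 0.294 for Creb3. Srebf1 had a log2 fold change of 0.17 (adjusted p = 0.139).

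**Figure D5:**
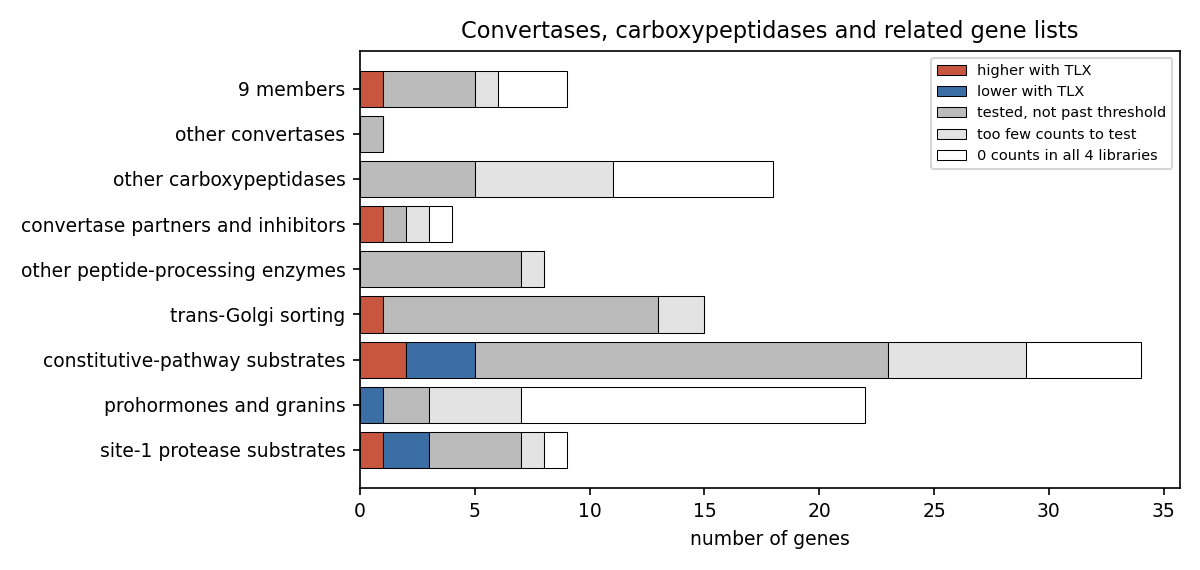
Number of genes in the 9 members and in 8 related lists that were higher, lower or not past the threshold (edgeR adjusted p under 0.05), had too few counts to be tested, or had 0 counts in all 4 libraries. The substrates of the constitutive route hold 2 higher and 3 lower genes, and 15 of 22 prohormone and granin genes were at 0.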

How the data were processed

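The values are the authors' deposited raw counts, whole numbers for each feature in each library, next to a Length column, per the file headers. TopHat2 2.0.13 and build mm9 are named in the submitters' processing notes; no counting program, annotation or strand setting is named there. The table has 56826 rows, of which 33353 are FANTOM3 clone rows, which took 23.3% to 25.1% of the counts. They entered neither totals nor tests; none had the same 4 counts as a tested member. The median chi-square per gene was 1.13 between the controls and 0.923 between the TLX libraries (0.455 under sampling noise). Libraries of a group thus differed by more than sampling noise, which does not show that they came from separate cultures. Each library was counted as its own replicate.

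After filterByExpr (minimum count 10) and TMM scaling, 11024 gene rows entered the quasi-likelihood F-test of edgeR, with Benjamini-Hochberg adjustment over them all. Residual degrees of freedom were 2, and tests and intervals also used those gained by moderating the variance across genes. The SE is the log2 fold change divided by the square root of F. Levels are CPM on TMM-scaled totals of the tested gene rows, divided by the deposited length, taken as bases, where genes are compared. Tools were DESeq2 1.42.0, edgeR 4.0.16, limma 3.58.1 and R 4.3.3. The test was tried on simulated data. The members and gene lists were chosen with earlier results of these data known. Named are all members, Nr2e1, and from each other list the called genes, up to 4 of smallest p and genes at 0; not all of these are printed, and some list members are not reported here and were left out of the list counts. Likeness was taken among genes averaging at least 5 CPM, naming 3 each. Rnf214, Tagln, Scg5, the markers named and the sequence motifs were added after the values were seen. Alternatives were other scalings, filters and tests, the replicate block, each library left out, all feature rows and, added after the data were seen, leaving out Rn45s and Lars2.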

Additional observations from a re-analysis of the deposited data

How the results depend on the processing

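Of 65 values of the 5 tested members under the 13 alternatives, 54 kept direction and side of the threshold. The count of members higher fell from 1 to 0 on total counts without normalization factors and in DESeq2, and ran from 0 to 1 when single libraries were left out. Over all genes, DESeq2 called 355 higher and 484 lower, and leaving out single libraries gave 388 to 993 higher and 585 to 1060 lower. The deviations of same-numbered libraries from their group means correlated across 8589 genes (r = 0.241), but 2 pairs do not establish a pairing. With the replicate number as a block, 1495 genes were higher and 1487 lower of the 11024 tested, in place of 859 and 997. Of the 5 tested members, 1 was higher, Cpd (edgeR adjusted p = 0.00154), and 2 were lower, Furin (0.0102) and Cpe (0.0339), under this block. Other named genes that passed only with it or with a library left out were Mbtps1 (-0.21, adjusted p = 0.0171 with the block), Scpep1 (-0.17, 0.0167), Stx6 (-0.20, 0.0461), Ap1m1 (-0.20, 0.0487), Ap1s1 (0.20, 0.00365) and Srebf1 (0.17, 0.0341). Signs turned when single libraries were left out for genes near no difference, with log2 fold changes from -0.13 to 0.23 for Pcsk4, -0.051 to 0.027 for Pcsk7, -0.0064 to 0.155 for Aebp1, -0.071 to 0.27 for Gbp5, -0.081 to 0.0195 for Ctsb, -0.025 to 0.34 for Ins1 and -0.33 to 0.44 for Ins2; the cause was not tested. The 20 levels per kilobase under other scalings moved by less than 1 SD, and 182 of 208 counts of the other lists stayed within 1.5 times. Each group has 2 libraries. At this depth, a transcript under 3 counts cannot be told from 0.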
